A study of Mus musculus with 18 samples.

Results

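The 10 transcripts described here encode 5 enzymes of the urea cycle (Cps1, Otc, Ass1, Asl and Arg1) and 5 enzymes that open or carry the breakdown of single amino acids (Hal, Prodh, Ivd, Aass and Tat). They were taken by symbol from the authors' deposited table of mouse liver RNA sequencing, and all 10 of the 10 listed symbols are among its 12019 genes. The series addresses how liver transcripts of C57BL/6J mice differ after 8 weeks of an intervention that began at 21 weeks of age. The labels and design text list 3 libraries from mice under 30% caloric restriction, 3 from mice given rapamycin at 42 mg/kg/day, 3 from mice given metformin at 37.5 mg/kg/day, 3 from mice given TM5614 at 20 mg/kg/day, and 6 from mice fed ad libitum, the control. The compounds were mixed into chow and all mice carried the same genotype, C57BL6 in the labels. Rapamycin inhibits the kinase mTOR, metformin is a glucose-lowering biguanide, and TM5614 is an inhibitor of plasminogen activator inhibitor 1.

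The liver turns the nitrogen of amino acids into urea. Cps1 and Otc act in mitochondria, where ammonia becomes carbamoyl phosphate and then citrulline, and Ass1, Asl and Arg1 act in the cytosol, where citrulline takes up a second nitrogen from aspartate, becomes arginine and releases urea. The carbon skeletons of amino acids are oxidized or made into glucose and ketone bodies by pathway-specific enzymes, many of which are most abundant in the hepatocytes around the portal vein and are known to answer to glucagon, glucocorticoids and dietary protein.

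RefSeq promoter sequences for GRCm38.p6 were matched by symbol for 7 of the 10 members (Ass1, Ivd, Aass, Tat, Hal, Prodh and Otc); the others are Cps1, Asl and Arg1. Shown here are the 250 bases before the RefSeq gene start of the 5 members among these whose transcripts passed the test in at least 1 comparison, so that the sequences upstream of genes that rose and of genes that fell can be read side by side. Ass1 (plus strand, chr2:31470020-31470269), Aass (minus strand, chr6:23132987-23133236) and Prodh (minus strand, chr16:18089191-18089440) rose under caloric restriction, and Prodh also fell under rapamycin. Hal (plus strand, chr10:93488518-93488767) fell under caloric restriction and TM5614, and Ivd (plus strand, chr2:118861744-118861993) fell under rapamycin and TM5614. Each is given in the direction of transcription, and capitals mark the letters of the motifs named in the text that follows the sequences.
Ass1: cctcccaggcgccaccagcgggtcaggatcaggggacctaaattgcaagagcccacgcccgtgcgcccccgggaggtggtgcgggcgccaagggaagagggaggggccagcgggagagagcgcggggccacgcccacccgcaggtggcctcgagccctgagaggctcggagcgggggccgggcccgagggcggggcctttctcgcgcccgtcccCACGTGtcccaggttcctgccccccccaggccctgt
Aass: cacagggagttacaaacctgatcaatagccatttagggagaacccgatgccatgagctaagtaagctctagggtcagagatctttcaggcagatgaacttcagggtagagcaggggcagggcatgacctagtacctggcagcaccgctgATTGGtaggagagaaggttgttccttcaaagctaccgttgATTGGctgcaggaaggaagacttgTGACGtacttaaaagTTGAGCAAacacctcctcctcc
Prodh: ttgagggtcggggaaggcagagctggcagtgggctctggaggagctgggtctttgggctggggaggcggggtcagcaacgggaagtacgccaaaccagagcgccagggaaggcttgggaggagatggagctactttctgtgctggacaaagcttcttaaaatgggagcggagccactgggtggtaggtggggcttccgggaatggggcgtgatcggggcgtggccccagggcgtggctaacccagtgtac
Hal: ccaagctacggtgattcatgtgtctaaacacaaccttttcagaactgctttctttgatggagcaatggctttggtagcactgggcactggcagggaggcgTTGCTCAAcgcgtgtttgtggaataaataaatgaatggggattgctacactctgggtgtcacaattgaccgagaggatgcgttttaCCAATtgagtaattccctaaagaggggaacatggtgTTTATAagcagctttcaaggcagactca
Ivd: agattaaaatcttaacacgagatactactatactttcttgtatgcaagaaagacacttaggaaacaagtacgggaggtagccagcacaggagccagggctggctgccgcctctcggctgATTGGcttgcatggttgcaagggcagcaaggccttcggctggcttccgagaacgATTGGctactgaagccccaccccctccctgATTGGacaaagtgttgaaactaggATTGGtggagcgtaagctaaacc

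Both strands of these 250-base stretches were searched for motifs of factors known to act on amino acid enzyme genes, and the same search was made in 32851 promoters of that length. The E-box CACGTG of the clock factors lies in the Ass1 promoter from base -36 to base -31, counted back from the gene start, and is held by 6.02% of all promoters. The C/EBP motif TTGCNNAA lies in the promoters of Aass (-22 to -15, on the reverse strand) and Hal (-150 to -143) and in 9.56% of all promoters. The pentamer TGACG, part of the cAMP response element, lies in the Aass promoter from -37 to -33 and in 17.8% of all promoters, while the whole element TGACGTCA is in none of the 7 and in 1.55% of all. A TATAAA box stands in the Hal promoter from -28 to -23, on the reverse strand, and 12.4% of all promoters hold these letters. CCAAT letters, which read ATTGG where they lie on the reverse strand, occur in 4 of the 7 member promoters (Ivd, Aass, Tat and Hal), against 33.8% of all promoters. Ivd alone holds 4 such stretches, all on the reverse strand. Neither the palindromic glucocorticoid response element (0.387% of all promoters) nor the hexamer TGTTCT (16.1% of all promoters, and able to overlap that element) has these letters in any of the 7. The Prodh stretch holds none of the searched letters, and its GC content is 63.2%, against 75.6% for Ass1, 51.2% for Ivd, 45.6% for Hal and a median of 52.4% over all promoters. A match is a description of letters in a window and not a site of binding.

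The table gives 1 mean of normalized counts per group and no value per library, so the means carry no SD or standard error, and replicate error is judged only by the adjusted p of the authors. A transcript is called changed where the authors' deposited table gives an adjusted p under 0.05. The group means sum to between 7783345 (TM5614) and 8368017 (caloric restriction) normalized counts per group, and the depth of single libraries is not known. The smallest control means above 0 (0.315 to 0.350) are of the size seen in the 4 groups of 3 libraries (0.299 to 0.398), so the number of libraries behind the control mean is not certain. Albumin made up between 7.02% and 10.3% of the summed means of a group, and all 5 hepatocyte markers were present in each group. The 4 pancreatic markers summed to between 2.49 and 4.27 normalized counts in the 4 intervention groups, with 3 of the 4 at 0 in each, against 317 in the control with none at 0, and the part of this in the results was not tested. The 8 Kupffer cell and macrophage markers, none at 0, summed to 854 under caloric restriction, 1397 under rapamycin, 1257 under metformin and 1327 under TM5614, against 1829 in the control. Of the 8, 4 fell under caloric restriction, where 9.24% of all genes tested fell. The part of these markers in the results was not tested either. Marco alone had 261 in the control and between 27.3 and 44.5 in the intervention groups, with no adjusted p, and without it the sums were 822, 1353, 1229.8 and 1282 in the same order, against 1567 in the control. In bulk liver RNA, fewer cells of a type and less RNA per cell cannot be told apart. All 4 comparisons use the same control libraries, so a low or high control mean moves all 4 of them together.

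All 10 members were abundant transcripts, with a mean over the 5 groups of at least 1218 normalized counts (Ivd) and up to 25659 (Cps1), and all 10 have an adjusted p in each of the 4 comparisons. Together they made up 1.14% of the summed means under caloric restriction, 0.996% under rapamycin, 0.879% under metformin and 1.02% under TM5614, against 1.02% in the control. The ribosomal RNA transcript Rn45s made up 4.40% of the sum under metformin and between 0.132% and 0.555% in the other 4 groups, and without it the members' share was 0.920% under metformin, against 1.02% in the control. Their genes are spread over 8 chromosomes of the mm10 build and all are protein-coding. The values cover each whole gene, since no file gives values per exon.

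Levels were compared between genes after division by the length of the principal transcript in GENCODE vM21. On this per-length scale Arg1, which splits arginine into urea and ornithine, had the highest control level with 7816 normalized counts per kb, and Tat, the aminotransferase that opens tyrosine breakdown, came next with 7337. Cps1, which makes carbamoyl phosphate and limits the rate of the cycle, had 4575 per kb and Ass1, which joins citrulline to aspartate, had 4398 per kb in the control. Asl, which cleaves the product into arginine and fumarate, had 1873 per kb, Otc, which makes citrulline, 1538, and Aass, which opens lysine breakdown, 833. Hal, the ammonia-lyase that opens histidine breakdown, Prodh, the mitochondrial proline oxidase, and Ivd, the isovaleryl-CoA dehydrogenase of leucine breakdown, followed with 679, 602 and 387 per kb. Without values per library it cannot be said which neighbours in this order differ beyond their spread. The order was much the same in every group, with Ivd last in all 5 and Asl at rank 5 in all 5. Arg1 and Tat changed places under rapamycin alone and Aass and Otc under caloric restriction alone. Ass1 stood above Cps1 under caloric restriction and metformin, and Prodh above Hal under caloric restriction, metformin and TM5614. This order depends on the length used. Per kb of all annotated exons of a gene, Tat (7245) stood above Arg1 (5182) in the control, and Prodh (184) below Ivd (258). On that scale Prodh, not Ivd, was last in each group other than caloric restriction.

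**Figure D1:**
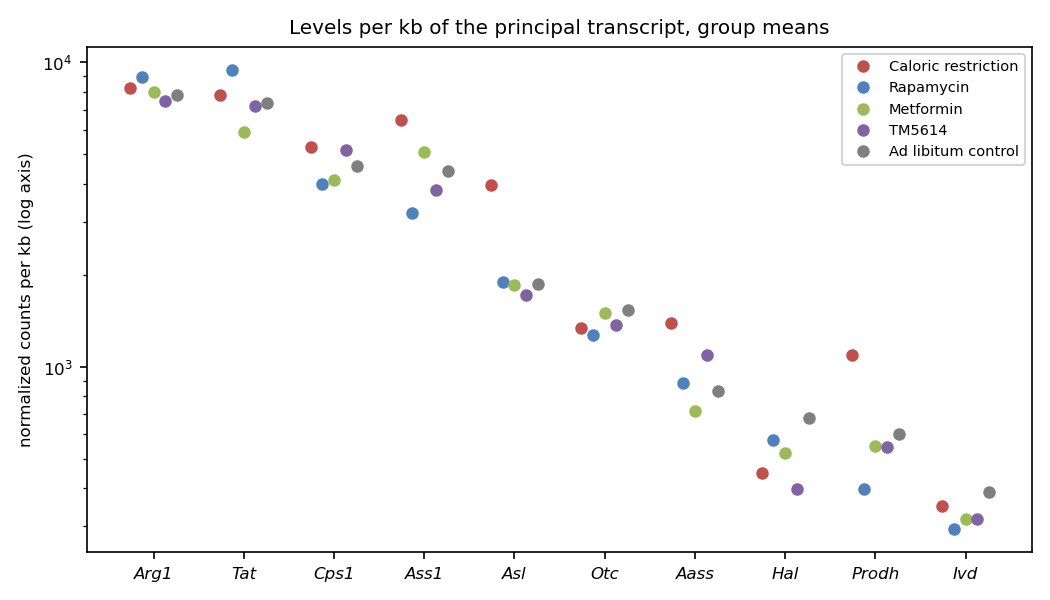
Level of each transcript per kb of its principal transcript (vertical log axis, normalized counts per kb) in the 5 groups, ordered by the control level; each point is 1 group mean with no error available. Arg1 and Tat stand at the top (7816 and 7337 in the control) and Ivd at the bottom (387), and the caloric restriction points of Asl, Ass1, Aass and Prodh lie above those of the other 4 groups.

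Caloric restriction came with more RNA of 2 cytosolic urea cycle enzymes, Ass1 and Asl, and of the first enzymes of proline and lysine breakdown, and with less RNA of the first enzyme of histidine breakdown. Of the 10 members 4 rose (Asl, Prodh, Aass and Ass1), 1 fell (Hal) and 5 did not pass. Of all genes tested in this comparison 19.0% were called (9.74% rose and 9.24% fell), and of the 1125 genes whose mean is at least 1000, a level all 10 members reach, 38.5% were called (22.9% rose and 15.6% fell), so the count of members lies close to that of genes of like abundance. Rapamycin and TM5614 came with lower levels of 2 members each, and metformin with no call among the 10. Over the 40 pairs of a member and a comparison there were 9 calls, 4 of them rises and all 4 under caloric restriction; 6 members were called at least once, and Cps1, Otc, Arg1 and Tat in no comparison.

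**Figure D2:**
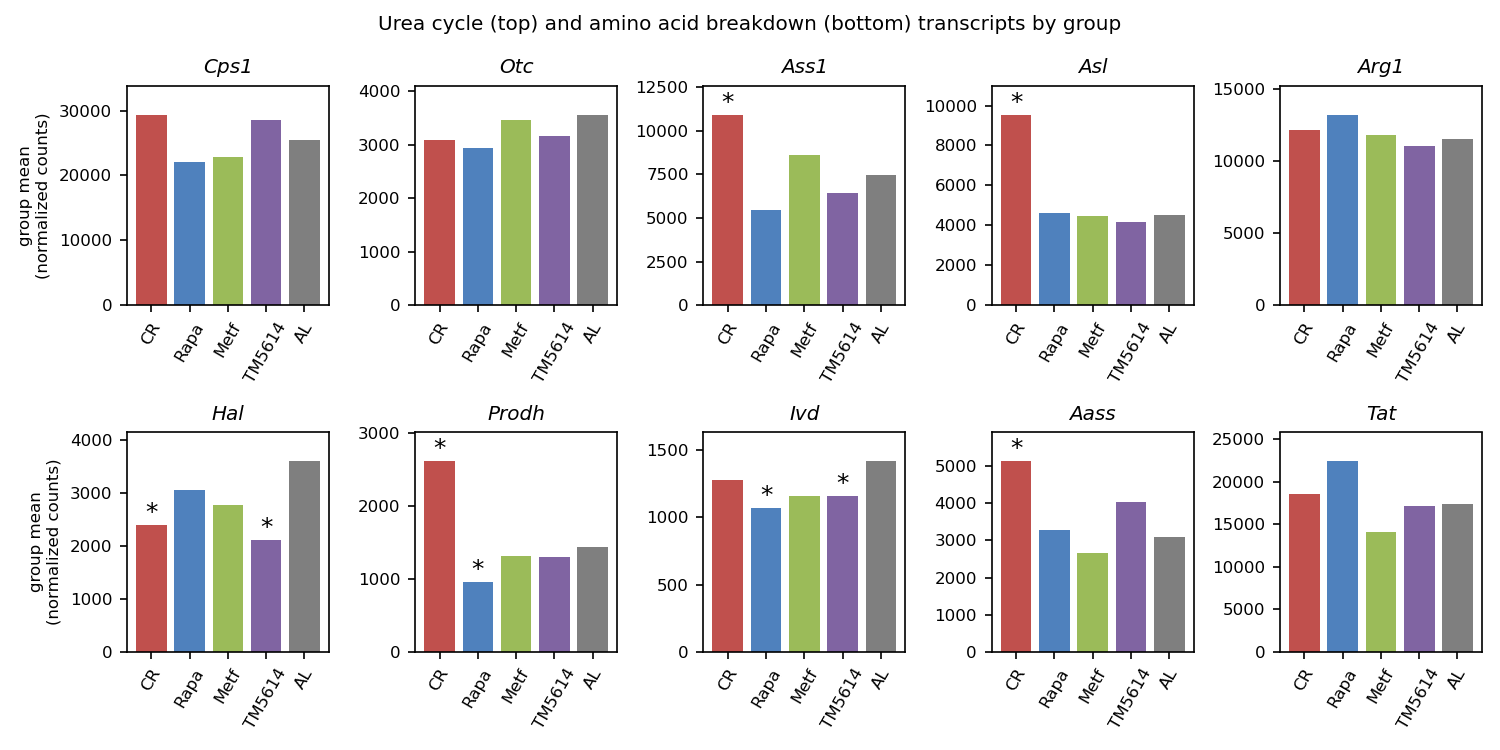
Group means of the 10 transcripts in normalized counts (bars from 0, no error available) under caloric restriction (CR), rapamycin (Rapa), metformin (Metf), TM5614 and ad libitum feeding (AL); an asterisk marks an adjusted p under 0.05 against AL per the authors' deposited table. Asl reaches 9546 under caloric restriction and lies between 4148 and 4602 in the other 4 groups.

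Asl showed the largest change of the urea cycle enzymes. The means for Asl from the authors' deposited table were 9546 normalized counts under caloric restriction, 4602 under rapamycin, 4487 under metformin and 4148 under TM5614, against 4519.9 in the control. The caloric restriction mean stood apart, and the other 4 lay within a narrow band. In the authors' deposited table the log2 fold change under caloric restriction was 1.08 with an adjusted p of 1.72e-05, a 2.11-fold difference of the means, and 93.5% of all genes tested had a smaller absolute change. For the 3 compounds the log2 fold changes of Asl were 0.03, -0.01 and -0.12 for rapamycin, metformin and TM5614 per the authors' deposited table, with adjusted p-values of 0.984, 0.999 and 0.822.

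Ass1, whose reaction consumes ATP and brings in the second nitrogen, varied more among the compounds. Its means per the authors' deposited table were 10939 under caloric restriction, 5451 under rapamycin, 8597 under metformin and 6452 under TM5614, against 7459.7 in the control. The log2 fold change of Ass1 was 0.55 under caloric restriction with an adjusted p of 0.0176 per the authors' deposited table. The highest mean, under caloric restriction, was 2.01 times the lowest, under rapamycin, where the log2 fold change of -0.45 did not pass (adjusted p = 0.234 per the authors' deposited table). Metformin and TM5614 gave Ass1 log2 fold changes of 0.20 and -0.21 per the authors' deposited table (adjusted p = 0.964 and 0.588).

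The 2 mitochondrial enzymes and Arg1 passed in none of the 4 comparisons. For Cps1 the authors' deposited table has means of 29372 under caloric restriction, 22079 under rapamycin, 22837 under metformin and 28593 under TM5614, against 25414 in the control. Its log2 fold changes ran from -0.20 to 0.21 per the authors' deposited table, with adjusted p-values of 0.470 to 0.980. Otc had means of 3101, 2948, 3474 and 3174 in the same order of interventions, against 3568 in the control, per the authors' deposited table. All 4 of its log2 fold changes were below 0, between -0.28 and -0.04, and the smallest adjusted p was 0.272 per the authors' deposited table. Arg1 was the member whose means varied least, with 12186 under caloric restriction, 13246 under rapamycin, 11816 under metformin and 11055 under TM5614, against 11545 in the control, from the authors' deposited table, and a highest mean only 1.20 times the lowest. Misses of the threshold do not show that these 3 transcripts were alike in the groups, and the table allows no interval for them.

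Ratios between members within a group do not depend on the scaling between groups. Asl stood at 3.08 times the count of Otc under caloric restriction, 1.56 under rapamycin, 1.29 under metformin and 1.31 under TM5614, against 1.27 in the control. Relative to Arg1, the next enzyme of the cycle, Asl stood at 0.783 under caloric restriction, 0.347 under rapamycin, 0.380 under metformin and 0.375 under TM5614, against 0.391 in the control. The steps around argininosuccinate made up a larger share of the urea cycle RNA under caloric restriction than in any other group, as a description of group means with no test. The 5 urea cycle transcripts summed to 65144 normalized counts under caloric restriction, 48327 under rapamycin, 51212 under metformin and 53422 under TM5614, against 52506 in the control. These sums were 1.24, 0.920, 0.975 and 1.02 times the control and, unlike the ratios within a group, depend on the scaling between groups. As a share of the summed means of all genes they were 0.778%, 0.608%, 0.616% and 0.686% in the same order, against 0.673% in the control.

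Among the amino acid breakdown enzymes, Prodh, which oxidizes proline in mitochondria, was the member with the widest range, and it was called in opposite directions by 2 comparisons. The authors' deposited table gives Prodh a mean of 2610.3 normalized counts under caloric restriction, 951 under rapamycin, 1309 under metformin and 1298 under TM5614, against 1436 in the control. It rose under caloric restriction with a log2 fold change of 0.86 and an adjusted p of 1.10e-08 per the authors' deposited table, the smallest of the 40 member values. Under rapamycin it fell with a log2 fold change of -0.60 and an adjusted p of 0.00514 per the authors' deposited table. The highest of the 5 means was 2.75 times the lowest, and 92.6% of the 1125 genes of mean 1000 or more had a smaller ratio of this kind; a direct test of caloric restriction against rapamycin was not possible from group means. Aldh4a1, which takes the product of Prodh on to glutamate, passed in no comparison, and the ratio of Prodh to Aldh4a1 was 0.632 under caloric restriction and 0.264 under rapamycin, against 0.346 in the control.

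Aass encodes the enzyme of the first steps of lysine breakdown. In the authors' deposited table its means were 5143 under caloric restriction, 3285 under rapamycin, 2659 under metformin and 4044 under TM5614, against 3085 in the control. The caloric restriction mean was the highest and the metformin mean the lowest. Aass rose under caloric restriction with a log2 fold change of 0.74 and an adjusted p of 1.25e-04 per the authors' deposited table. Under TM5614 its log2 fold change of 0.39 did not pass (adjusted p = 0.163 per the authors' deposited table), and rapamycin and metformin gave 0.09 and -0.21 there.

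Hal, the enzyme that releases ammonia from histidine, had its highest mean in the control. The means for Hal from the authors' deposited table were 2391 under caloric restriction, 3052 under rapamycin, 2768 under metformin and 2108 under TM5614, against 3609 in the control. All 4 intervention means lay below the control mean that they share. Hal fell under TM5614 with a log2 fold change of -0.78 and an adjusted p of 4.72e-04, and under caloric restriction with -0.59 and 0.00215, per the authors' deposited table. Rapamycin and metformin gave Hal log2 fold changes of -0.24 (adjusted p = 0.609) and -0.38 (adjusted p = 0.586), which did not pass, per the authors' deposited table. Under TM5614, 95.4% of the genes tested had a smaller absolute change than Hal.

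Ivd, a mitochondrial dehydrogenase specific to the leucine pathway, showed small differences in the same direction in each comparison. Its means were 1278 under caloric restriction, 1072 under rapamycin, 1157 under metformin and 1163 under TM5614, against 1420.2 in the control, per the authors' deposited table. Here too the shared control mean was the highest of the 5. Ivd fell under rapamycin with a log2 fold change of -0.41 and an adjusted p of 0.00220, and under TM5614 with -0.29 and 0.0283, per the authors' deposited table. Caloric restriction and metformin gave -0.15 (adjusted p = 0.221) and -0.29 (adjusted p = 0.133) per the authors' deposited table. The change under metformin was about as large as the called change under TM5614, and the table gives no test between them.

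Tat, a textbook target of glucocorticoids in liver, passed in no comparison although its means were spread widely. The authors' deposited table gives Tat means of 18577 under caloric restriction, 22434 under rapamycin, 14069.9 under metformin and 17134 under TM5614, against 17425 in the control. Its log2 fold changes of 0.09, 0.36, -0.31 and -0.02 for caloric restriction, rapamycin, metformin and TM5614 had adjusted p-values of 0.926, 0.856, 0.987 and 0.988 per the authors' deposited table. The highest mean, under rapamycin, was 1.59 times the lowest, under metformin, and 71.0% of the abundant genes had a smaller ratio.

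**Figure D3:**
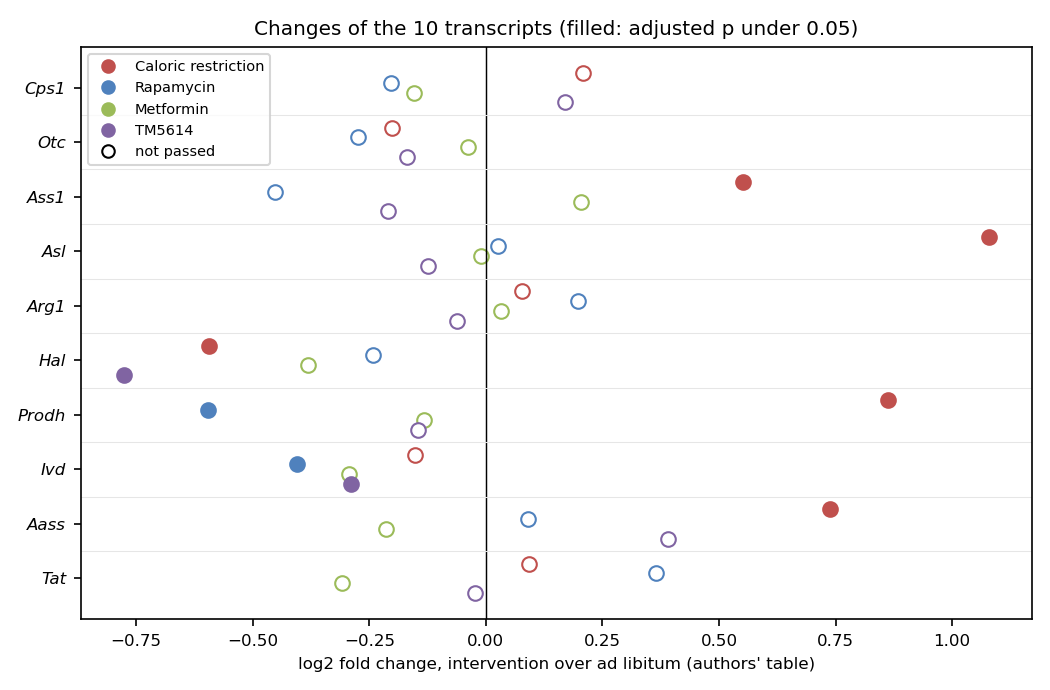
Log2 fold change of each transcript (rows) for each intervention over the ad libitum control (horizontal axis, authors' deposited table); filled circles have an adjusted p under 0.05. Filled circles to the right of 0 are those of caloric restriction for Ass1, Asl, Prodh and Aass, and those to the left are Hal (caloric restriction and TM5614), Prodh (rapamycin) and Ivd (rapamycin and TM5614).

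Under rapamycin the falls of Prodh and Ivd made 2 of 10 members, where 1.39% of all genes tested were called (0.714% rose and 0.675% fell) and 3.73% of genes of mean 1000 or more (2.49% rose and 1.24% fell). The marker calls in this comparison were falls of Stab1 (-0.72, adjusted p = 0.00756) and Stab2 (-0.90, adjusted p = 0.0293), 2 of the 5 sinusoidal endothelial markers, and of the stellate cell marker Lum (-0.95, adjusted p = 0.0469), per the authors' deposited table. The 5 sinusoidal markers, none at 0, summed to 719 normalized counts under rapamycin, against 1154 in the control, and the part of these markers in the falls of Prodh and Ivd was not tested. Under TM5614 the falls of Hal and Ivd also made 2 of 10, where 3.96% of all genes tested were called (2.01% rose and 1.95% fell) and 6.22% of genes of mean 1000 or more (2.22% rose and 4.0% fell). Under metformin none of the 10 passed, where 0.245% of all genes tested (0.163% rose and 0.0816% fell) and 0.622% of the abundant genes (0.444% rose and 0.178% fell) were called. The smallest adjusted p of a member under metformin was that of Ivd, 0.133, per the authors' deposited table, which the authors made with DESeq2 by its name and which holds only adjusted p-values, so that a count at an unadjusted p is not given. The median log2 fold change of the members was 0.15 under caloric restriction, -0.22 under rapamycin, -0.14 under metformin and -0.14 under TM5614, computed from the authors' deposited table. With group means set to an equal sum over all genes other than Rn45s, the median under caloric restriction was 0.05. The medians of all genes tested were 0.01, 0.01, 0.01 and -0.01 in the same order, and those of genes with a mean of 1000 or more were 0.09, 0.04, -0.00 and -0.07. The members' absolute log2 fold changes had medians of 0.38, 0.26, 0.18 and 0.17, beside 0.25, 0.13, 0.09 and 0.15 for the abundant genes.

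**Figure D4:**
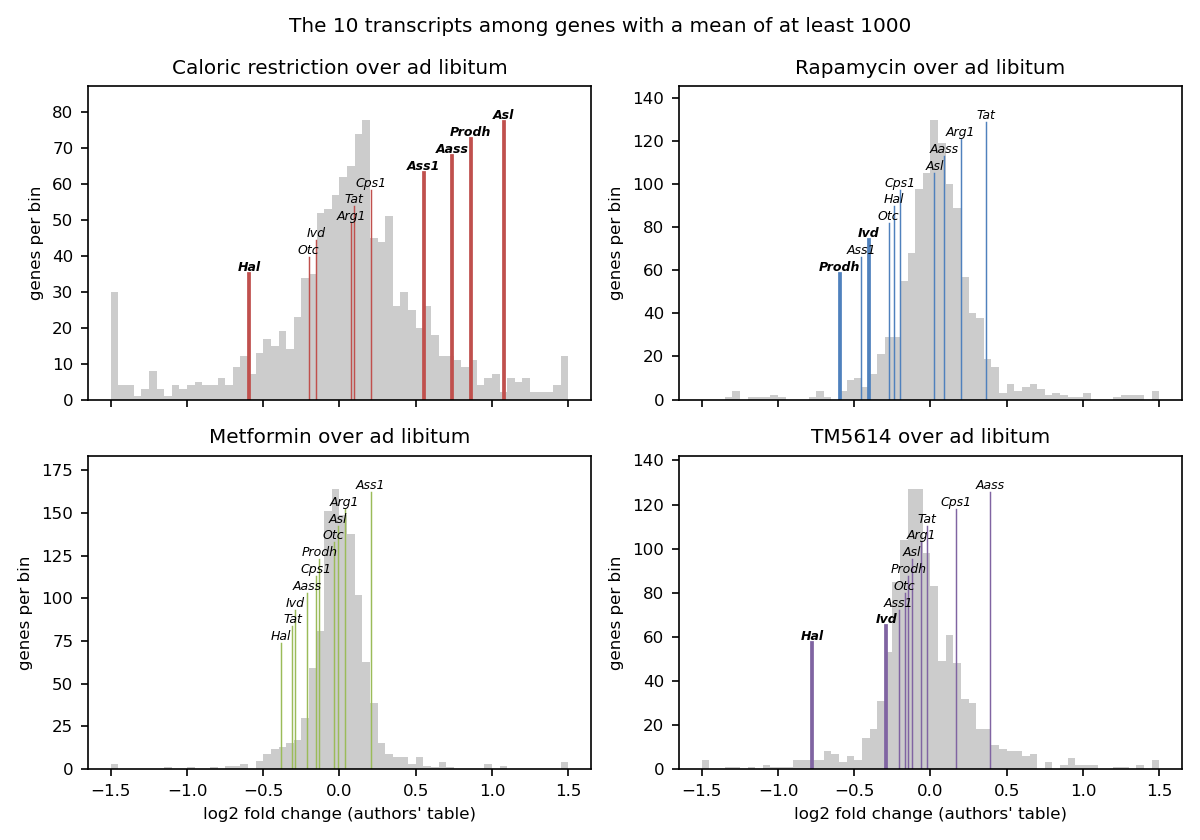
Log2 fold changes of the 10 transcripts (coloured lines, thick and bold where the adjusted p is under 0.05) on the distribution of the 1125 genes whose mean is at least 1000 (grey bars, genes per bin of 0.05; values beyond 1.5 stand in the outermost bins), from the authors' deposited table. Under caloric restriction Asl (1.08), Prodh (0.86), Aass (0.74) and Ass1 (0.55) lie on the right flank and Hal (-0.59) on the left, and line heights carry no value.

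Other genes were read from 12 lists of 101 genes, 100 of them in the table. The lists cover enzymes and carriers of amino acid metabolism, amino acid transport, regulators of amino acid enzyme genes, and glucocorticoid-induced genes. Under caloric restriction 19 of the 100 rose, 11 fell and 70 did not pass, beside the 19.0% of all genes and 38.5% of abundant genes called. The transport, regulator and glucocorticoid-induced lists gave 4, 4 and 1 of these rises and none of the falls. The 68 enzymes and carriers among the 100 split into 10 that rose and 11 that fell, with a median log2 fold change of 0.07. Under TM5614 none of these 68 rose, 8 fell, 59 did not pass and 1 had no adjusted p, with a median of -0.17. In that comparison 1.95% of all genes tested and 4.0% of the abundant genes fell, and the median log2 fold changes were -0.01 over all genes tested and -0.07 over the abundant ones. None of the 68 was called under rapamycin, where 1 had no adjusted p, or under metformin, where 3 had none. Only 1.39% of all genes tested were called under rapamycin and 0.245% under metformin, so few calls among 68 genes would be looked for.

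Among genes accessory to the urea cycle, caloric restriction came with higher levels of an aspartate carrier and of ornithine and glutamine enzymes. Of 6 accessory genes 3 rose and 3 did not pass, where 9.74% of all genes tested and 22.9% of the abundant genes rose. Slc25a13, the mitochondrial carrier that exports aspartate for the Ass1 reaction, rose by 0.50 on the log2 scale with an adjusted p of 1.90e-05 per the authors' deposited table. Oat, the aminotransferase that links ornithine to glutamate and proline metabolism, rose by 0.78 (adjusted p = 0.0263), and the glutamine synthetase gene Glul by 0.45 (adjusted p = 0.00648), per the authors' deposited table. Nags, whose product makes the obligatory activator of Cps1, had 0.43 with an adjusted p of 0.0605, and the ornithine carrier Slc25a15 had 0.20 with 0.480, per the authors' deposited table. Arg2, the mitochondrial arginase, was a rare transcript, with means between 2.98 and 6.79 normalized counts from the authors' deposited table. Among 9 genes of transamination and ammonia release 2 rose, 1 fell and 6 did not pass. Of all genes tested 19.0% were called in this comparison, and of the abundant genes 38.5%. Got1, the cytosolic aspartate aminotransferase, had means of 6442 under caloric restriction and 3514 in the control (log2 fold change 0.87, adjusted p = 0.00498), while its mitochondrial counterpart Got2 fell by 0.21 on the log2 scale (adjusted p = 0.0278), per the authors' deposited table. The alanine aminotransferase Gpt rose by 0.58 (adjusted p = 2.02e-05) per the authors' deposited table.

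The step after Hal in histidine breakdown could be followed in 3 further enzymes. Amdhd1, which opens the imidazolone ring, fell under caloric restriction (log2 fold change -0.78, adjusted p = 1.16e-05) and under TM5614 (-0.65, adjusted p = 0.00322) per the authors' deposited table. Ftcd, the last enzyme of the pathway, fell under TM5614 (-0.37, adjusted p = 0.00368) and did not pass under caloric restriction (-0.09, adjusted p = 0.531) per the authors' deposited table. Uroc1, the urocanate hydratase between Hal and Amdhd1, passed in neither, and the ratio of Hal to Uroc1 was 0.598 under caloric restriction and 0.634 under TM5614, against 1.02 in the control. Of these 3 enzymes 1 fell under caloric restriction, where 9.24% of all genes tested and 15.6% of the abundant genes fell, and 2 fell under TM5614, where 1.95% and 4.0% did; the list was chosen with earlier results known.

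In the lysine breakdown list Dhtkd1, a mitochondrial 2-oxoadipate dehydrogenase subunit, rose under caloric restriction (log2 fold change 0.87, adjusted p = 9.18e-04, per the authors' deposited table). The 4 other genes of that list did not pass, where 9.74% of all genes tested and 22.9% of the abundant genes rose. In the leucine, isoleucine and valine list of 22 genes, to which Ivd belongs by function, 1 rose, 3 fell and 18 did not pass under caloric restriction. That share called is near the 19.0% of all genes tested and below the 38.5% of abundant genes. Of the carboxylase that follows Ivd in leucine breakdown, the subunit Mccc2 fell (-0.41, adjusted p = 8.56e-04) and the subunit Mccc1 did not pass (-0.03, adjusted p = 0.876), per the authors' deposited table. The dehydrogenases Acadsb (-0.39) and Acad8 (-0.41) also fell, and Bckdhb, a subunit of the branched-chain ketoacid dehydrogenase, rose (0.39, adjusted p = 0.0103), per the authors' deposited table. Under TM5614 the hydratase Echs1 alone of the 22 passed (-0.29, adjusted p = 0.00543, per the authors' deposited table). In that comparison 3.96% of all genes tested and 6.22% of the abundant genes were called. Under rapamycin and metformin none of the 22 passed, where only 1.39% and 0.245% of all genes tested were called. The 3 further genes of proline and hydroxyproline breakdown (Aldh4a1, Prodh2 and Hoga1) passed in no comparison.

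Tyrosine and tryptophan breakdown held changes in both directions under caloric restriction, where 9.74% of all genes tested rose and 9.24% fell. Hpd, the step after Tat, rose by 0.54 on the log2 scale (adjusted p = 0.00846), per the authors' deposited table. The tetrahydrobiopterin recycling genes fell, Qdpr with -0.65 (adjusted p = 1.73e-10) and Pcbd1 with -0.35 (adjusted p = 0.0192), per the authors' deposited table. Tdo2, which opens tryptophan breakdown in hepatocytes, rose by 0.70 (adjusted p = 1.64e-04), and Kynu (-0.50), Haao (-0.41) and Ido2 (-0.94) fell per the authors' deposited table. Under TM5614 Qdpr (-0.42) and Haao (-0.29) fell, and no gene of these 2 lists of 7 rose, per the authors' deposited table. In the glycine, serine and threonine list the aminomethyltransferase Amt, part of the glycine cleavage system, fell under caloric restriction to 114 normalized counts, against 318 in the control (log2 fold change -1.48, adjusted p = 6.51e-13), per the authors' deposited table. Under TM5614 Amt (-0.66), the glycine decarboxylase Gldc (-0.68) and Gcat (-0.42) fell per the authors' deposited table, 3 of the 6 genes of that list. In that comparison 1.95% of all genes tested and 4.0% of the abundant genes fell.

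**Figure D5:**
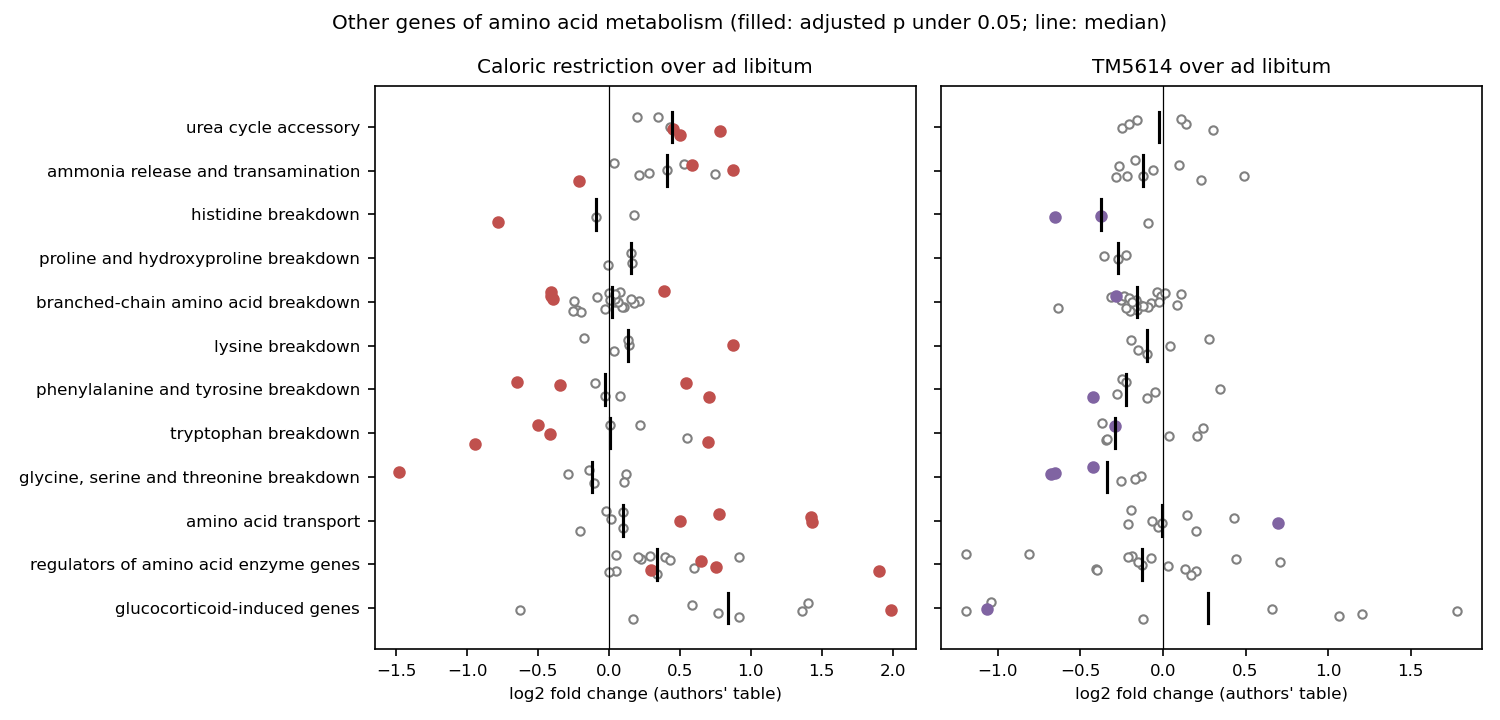
Log2 fold changes (horizontal axis, authors' deposited table) of the genes of 12 lists under caloric restriction (left) and TM5614 (right) over the ad libitum control; filled points have an adjusted p under 0.05 and black lines are list medians, and vertical scatter within a row carries no value. Caloric restriction has filled points on both sides of 0 (19 above, 11 below), and TM5614 has 9 below and 1 above.

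Of 9 amino acid transport genes 4 rose and none fell under caloric restriction, where 9.74% of all genes tested and 22.9% of the abundant genes rose: the arginine and lysine carrier Slc7a2 (0.77, adjusted p = 0.0343), the neutral amino acid carrier Slc38a4 (0.50, adjusted p = 0.0379), the glutamate carrier Slc1a2 (1.43, adjusted p = 8.04e-11) and the mitochondrial carrier Slc25a29 (1.43, adjusted p = 4.30e-04), per the authors' deposited table. Slc1a2 also rose under TM5614 (0.70, adjusted p = 0.0215, per the authors' deposited table). Of 15 regulators 4 rose under caloric restriction, a share near that of the abundant genes, namely the nuclear receptor Hnf4a (0.65, adjusted p = 0.00658), the glucocorticoid receptor Nr3c1 (0.30, adjusted p = 0.0449), Foxo1 (0.75, adjusted p = 9.38e-05) and the fasting hormone Fgf21 (1.90, adjusted p = 0.0497), per the authors' deposited table. The 11 that did not pass in this comparison were Cebpa (0.05), Cebpb (0.40), Cebpd (0.29), Nr1h4 (0.23), the glucagon receptor Gcgr (0.05), Creb1 (0.20), Crtc2 (0.34), Ppargc1a (0.91), Klf15 (0.00), Foxa2 (0.60) and Atf4 (0.43), with log2 fold changes from the authors' deposited table. Under metformin, where 0.245% of all genes tested were called, Foxo1 fell (-0.80, adjusted p = 0.00304) and Ppargc1a had -1.52 with an adjusted p of 0.0912 per the authors' deposited table. No regulator was called under rapamycin or TM5614, where 1.39% and 3.96% of all genes tested were. Of 8 glucocorticoid-induced genes Fkbp5 rose under caloric restriction to 2131 normalized counts, against 537 in the control (adjusted p = 0.0217), and Sgk1 fell under TM5614 (-1.06, adjusted p = 0.0488), per the authors' deposited table. The other 7 did not pass in either comparison, among them Sgk1 under caloric restriction (-0.63) and Fkbp5 under TM5614 (1.78). Of all genes tested 19.0% were called under caloric restriction and 3.96% under TM5614.

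Markers of hepatocyte position in the lobule were summed per group. The 7 periportal markers, which include Hal and Ass1, summed to 65369.8 normalized counts under caloric restriction, 49108 under rapamycin, 45062 under metformin and 45346 under TM5614, against 52295 in the control. The 7 pericentral markers summed to 108985.5 under caloric restriction, 47901 under rapamycin, 60626.5 under metformin and 63496 under TM5614, against 59997 in the control. None of the 14 was at 0 in any group. Under caloric restriction 2 of the 7 periportal markers rose and 1 fell, and 4 of the 7 pericentral markers rose. Of all genes tested 9.74% rose and 9.24% fell, and of the abundant genes 22.9% and 15.6%. The 3 pericentral markers that did not pass were Axin2 (0.78), Cyp1a2 (-0.21) and Lgr5 (-0.35), with log2 fold changes from the authors' deposited table. Of the 4 that rose, Glul, Oat and Slc1a2 are also genes of the urea cycle accessory and transport lists, and the other is Cyp2e1. Without Cyp2e1, which alone had 84383 normalized counts under caloric restriction and 42534 in the control, the pericentral sum under caloric restriction was 1.41 times the control, against 1.82 with it. Without Pck1, which did not pass, the periportal sum under caloric restriction was 1.17 times the control, against 1.25 with it. The part of zonation in the changes of the members was not tested.

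For each member called at least once, the genes of mean 100 or more whose 4 log2 fold changes lay nearest were found by the root mean square difference, over 5 group means of which the control enters all 4 values. For Prodh these were the aminoacylase Acy1 (difference 0.07), Fnip2 (0.08) and Oat (0.09), the ornithine aminotransferase of the accessory list. For Hal they were Nat8 (0.05), Ssbp3 (0.06) and Tmem150a (0.08), and for Aass they were Mia2 (0.06), Dcun1d3 (0.08) and Sik3 (0.12). Asl was nearest to the zinc exporter Slc30a1 (0.09), Cyp2c68 (0.11) and Ndel1 (0.11), and Ass1 to Slc24a6 (0.08), Tmem140 (0.12) and the prostaglandin dehydrogenase Hpgd (0.13). For Ivd they were Mkrn1 (0.06), Xpc (0.06) and Med16 (0.06). With genes down to a mean of 10 allowed, 3 of 3 stayed for Hal, 2 for Prodh, 1 each for Asl, Ass1 and Aass, and none for Ivd.

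The members lie at these positions in mm10 by the GENCODE vM21 annotation. Cps1 lies on chromosome 1 from 67123026 to 67231259, Otc on chromosome X from 10252305 to 10321024 and Ass1 on chromosome 2 from 31470207 to 31520672. Asl lies on chromosome 5 from 130011258 to 130029247, and Arg1 and Hal both lie on chromosome 10, from 24915221 to 24927484 and from 93488768 to 93519304. Prodh lies on chromosome 16 from 18060357 to 18090203, Ivd on chromosome 2 from 118861954 to 118882909, Aass on chromosome 6 from 23072173 to 23132986 and Tat on chromosome 8 from 109990437 to 109999803. The RefSeq gene starts used for the promoters of Ass1, Prodh and Ivd lie inside these spans, so the GENCODE annotation begins those genes further upstream.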

How the data were processed

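Liver RNA was isolated from perfused, minced livers and sequenced from poly(A)-selected libraries, per the labels' protocols. Reads were aligned with HISAT2 2.0.5 to mm10, per the submitters' processing notes. How genes were counted, and on which annotation, is not given in the sources used here. Per the file headers, the authors deposited a normalized signal per group (the values are those of mean counts divided by size factors), a log2 fold change and an adjusted p-value per intervention. The name the authors gave the deposited table states DESeq2. The deposited log2 fold changes of the members differ from the log2 ratio of the group means by at most 0.00153. The other deposited table has 18 columns of library values that could be tied to no sample by name, so they were left out, and the planned limma test and leave-one-out fits were not run. The design text gives 30 mice in all but group sizes that sum to the 18 labelled libraries.

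Members are called at the authors' adjusted p under 0.05. Of the 12019 genes, an adjusted p is given for 11760 under caloric restriction, 10369 under rapamycin, 7350 under metformin and 10834 under TM5614. These are the genes tested, so shares of genes tested rest on a different set in each comparison. Members and lists were chosen with earlier results of these data known. Of the list genes, 4 were matched through older symbols. All members and regulators are named, with the 4 largest called changes of list genes at a mean of at least 50 per comparison and other called list genes. Promoters come from RefSeq (GRCm38.p6). Counting and nearest-gene code was tested on simulated data. Python 3.11.15, pandas 2.3.3 and numpy 2.4.6 were used. The result of 1 list gene is not reported here.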

Additional observations from a re-analysis of the deposited data

How the results depend on the processing

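Each of the 40 log2 fold changes of the members moved by less than 0.1 with a pseudocount of 1, with the median of all genes subtracted, and with group means set to an equal sum over all genes other than Rn45s, and no called value changed sign. The last 2 settings move all members of a comparison by the same amount. The largest move was 0.097 and the smallest called change -0.29 (Ivd under TM5614), so the kept signs are no test of the calls. Under the equal sum Arg1 (-0.02) and Tat (-0.00) under caloric restriction, which were not called, came out below 0. The members' median log2 fold changes kept their sign in all 4 comparisons, but that under caloric restriction was 0.05 with the equal sum, against 0.15 as deposited. The marker sums without Cyp2e1, Pck1 or Marco and the members' share without Rn45s were chosen after seeing the data. At an adjusted p under 0.01, 1 member was called under TM5614, against 2 at 0.05, and 4 and 2 under caloric restriction and rapamycin. With a change of at least 0.5 required, 1 member each was called under rapamycin and TM5614. Of the list genes, 4 were called under TM5614 at 0.01 and 17 at 0.1, against 10 at 0.05, and 3 under metformin at 0.1, against 1. No paired analysis was possible because the deposited library columns carry no name that matches a sample, and leaving out a replicate and the limma test were not run for the same reason. The unknown depth per library limits what can be said of transcripts that did not pass.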
